A study of Mus musculus with 30 samples.

Results

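The mRNAs of 10 members of the Bcl2 family (Bcl2, Bcl2l1, Bcl2l11, Mcl1, Bax, Bak1, Bid, Bad, Bbc3 and Pmaip1) were followed in mouse embryonic stem cell (ESC) clones from which 1 of 4 phosphorylation regulators was depleted. The members were found by gene symbol, which gave 20 of the 25697 probes on the array and 10 of its 18097 gene symbols. Proteins of this family decide whether the outer mitochondrial membrane is opened to release cytochrome c, the step that commits a cell to apoptosis through the intrinsic pathway. Bcl2, Bcl2l1 (Bcl-xL) and Mcl1 hold the membrane closed, Bax and Bak1 form the pores, and the BH3-only proteins Bcl2l11 (Bim), Bid, Bad, Bbc3 (Puma) and Pmaip1 (Noxa) carry death signals to them by binding the guardians or the pore formers. Pluripotent cells are known to sit close to the apoptotic threshold, and Bbc3, Pmaip1 and Bax are classical p53 target genes.

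The cells were rescue clones of Ainv15, a mouse ESC line that expresses the reverse tetracycline transactivator. In Bub1b_R, Chek1_R, Ppm1g_R and Ppp2r1b_R an shRNA against the named mRNA is always present, and doxycycline (Dox, 1 μg/ml) drives a copy of that mRNA that the shRNA cannot recognize, so by design the regulator is supplied with Dox and depleted without it. Control_R is the control clone, kept in the same way, and it too carries the transactivator and meets Dox. Each clone was sampled with Dox and 5 days after Dox withdrawal, with 3 arrays in each of the 10 conditions and 30 arrays in all. Each regulator is represented by 1 clone, so that a difference between clones cannot be told apart from a difference between the depleted regulators. Nothing in the labels says that the 3 arrays of a condition came from separate cultures, so the p-values measure only the spread between arrays, and precision is limited to what 3 arrays allow. In bulk RNA, fewer cells that express a gene and less RNA per cell cannot be told apart.

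Levels below are log2 normalized intensities of a probe, and a change is a difference between the means of such levels. Levels of different genes are read by different probes and were not set against each other. A probe counted as detected on an array at a detection p under 0.05, passed the test at an adjusted p under 0.05 (limma, Benjamini-Hochberg over the 15151 probes tested), and was called when the change was also at least 1.5-fold. Between 11733 and 13685 probes were detected per array. The 12 Bub1b_R and Control_R arrays had a lowest detected signal of 12.9 to 20.9, against 27.8 to 58.1 for the other 18 arrays, so that Chek1_R, Ppm1g_R and Ppp2r1b_R against Control_R crosses array sets, and set and clone cannot be told apart there. These sets rest on that signal alone, and no label names a batch. The sample numbers of Control_R lie in an earlier range than those of the other clones, and the paper also used arrays made public before. Bub1b_R and Control_R may thus differ in batch as well. Ppm1g fell by 1.25 on Dox withdrawal in Ppm1g_R (limma adjusted p 4.5e-09), while Bub1b (−0.14) and Ppp2r1b (0.20) did not pass in their own clones. Chek1 was at least 1.35-fold higher without Dox than with Dox on the arrays labelled Chek1_R (adjusted p 0.00115), and it was below Control_R there in both conditions, by −1.07 without Dox (adjusted p 3.1e-06) and at least 3.02-fold with Dox (adjusted p 1.3e-09). Bub1b in Bub1b_R was likewise below Control_R, by −0.67 without Dox and −0.70 with Dox, both called. Ppp2r1b in Ppp2r1b_R was below Control_R by −0.61 with Dox (adjusted p 0.00124, called). Without Dox the difference was −0.25 and did not pass (adjusted p 0.158), so depletion of Ppp2r1b was not seen on these arrays. The paper describes its supplied copy as carrying silent changes in the stretch that the shRNA targets. The supplied copies of Chek1 and Bub1b lack the stretch that the shRNA targets, and the probe positions are not given in the sources used here, so a probe in that stretch would read the endogenous mRNA alone and would not check the Dox labels. The defining ESC markers (8 on the array) were detected on every array. On Dox withdrawal 1, 1, 0 and 3 of them were called lower in Bub1b_R, Chek1_R, Ppm1g_R and Ppp2r1b_R (Utf1 in the first 2, and Zfp42, Esrrb and Utf1 in the last) and 0 in Control_R. On Dox withdrawal 7, 7, 6 and 4 of 7 primitive streak markers were called higher in Bub1b_R, Chek1_R, Ppm1g_R and Ppp2r1b_R and 2 in Control_R, and all 4 tested trophoblast markers (Cdx2, Eomes, Krt8 and Krt18) were called higher in each of the 4 clones and 0 in Control_R (limma). Eomes counts in both lists, and it was detected on no Ppp2r1b_R array. The trophoblast markers Elf5 and Hand1 were detected on no array of any condition. Relative to the change in Control_R, 3, 3, 2 and 1 of the 4 trophoblast markers were called higher in Bub1b_R, Chek1_R, Ppm1g_R and Ppp2r1b_R, in the last Cdx2 alone. The paper reported no rise of trophectodermal markers after Dox removal. That statement rests on its own choice of markers read by qRT-PCR, so it is not a like comparison. Of 9 tested fibroblast feeder markers 2, 4, 4 and 4 were called higher on Dox withdrawal in Bub1b_R, Chek1_R, Ppm1g_R and Ppp2r1b_R and 0 in Control_R. Thy1 was called lower in Chek1_R and Ppm1g_R, and Col1a2, Lum and Postn were detected on no array of any condition. The labels describe maintenance on fibroblast feeders, while the study's text gives culture without feeders for the arrays. The part that these cell type markers have in the values below was not tested.

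All 10 members were expressed on part or all of the arrays. Of their 20 probes 19 were detected on at least 3 arrays and were tested, and the remaining one, the dimmest of 4 for Bcl2l11, was detected on 1 array. Mcl1, Bax and Bad, with 1 probe each, and the brightest probes of Bcl2l1, Bcl2l11, Bid, Bbc3 and Pmaip1 were detected on all 30 arrays. Bak1 was detected on 23 arrays. The 2 probes of Bcl2 were detected on 14 and 16 arrays. Over the arrays, the mean level of the brightest or only probe ran from 5.58 for Bcl2 to 12.81 for Mcl1. The plot of levels by clone gives every array.

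**Figure D1:**
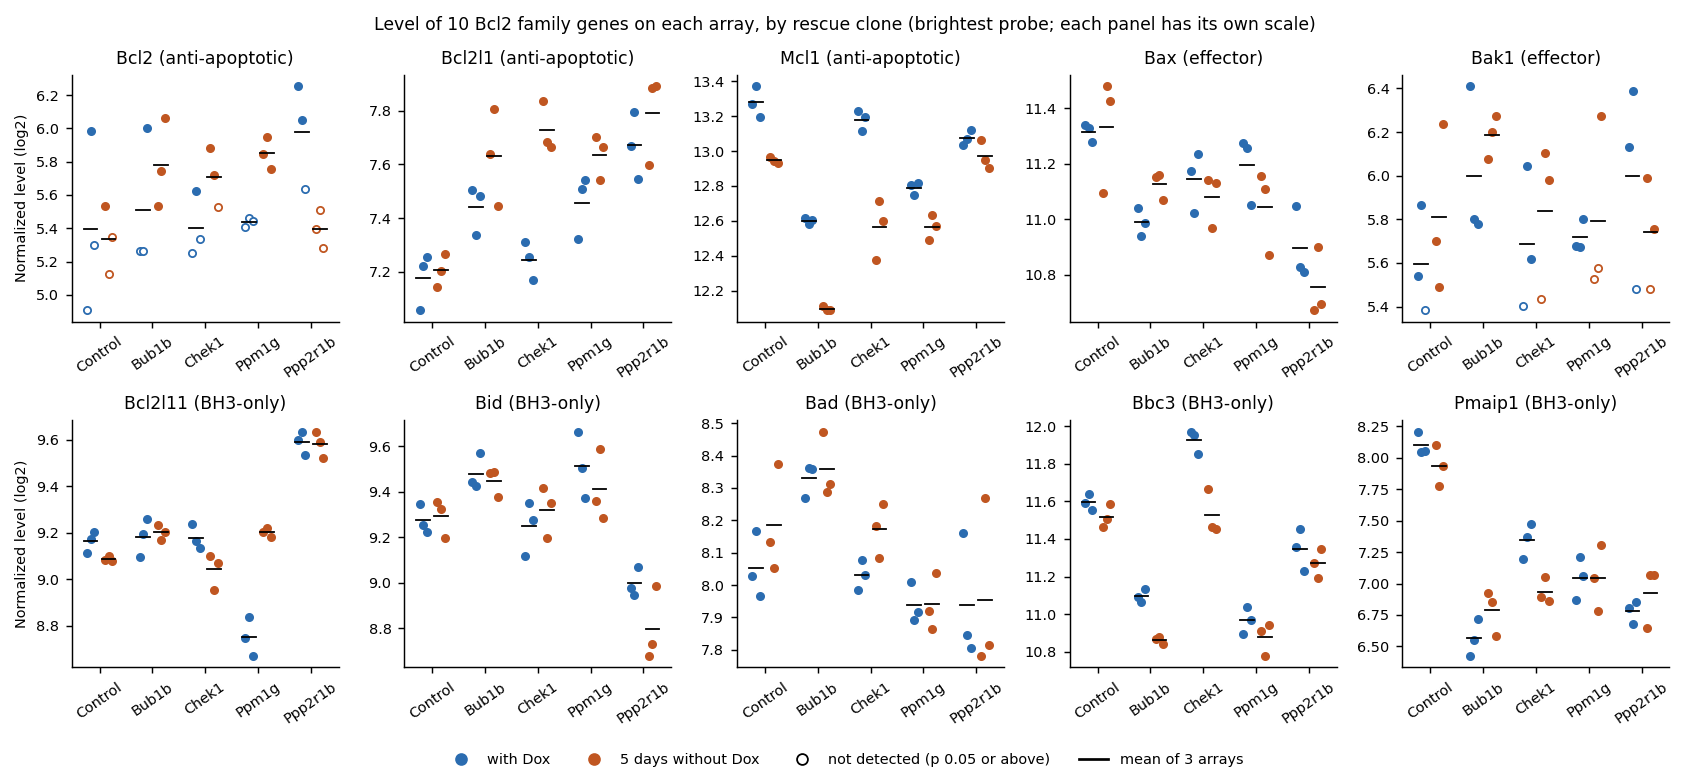
Log2 normalized level of the brightest probe of each of the 10 members on every array, by clone, with Dox in blue and after 5 days without Dox in orange, with open circles for arrays on which the probe was not detected and lines for means of 3 arrays. Pmaip1 lies higher in Control_R than in the other 4 clones in both conditions, Bcl2l11 stands low in Ppm1g_R with Dox, and Mcl1 lies lower without Dox in 4 clones without overlap of the arrays.

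The first question was how the family responds when Dox is withdrawn. The response was small. Mcl1 fell in 4 of the 5 clones, Control_R among them, Bcl2l11 rose in Ppm1g_R, Bbc3 fell in Bub1b_R and Chek1_R, and Bcl2l1 rose and Pmaip1 fell on the arrays labelled Chek1_R. No probe of Bax, Bak1, Bid or Bad passed the test in any clone (limma). As a count, the family did not exceed the whole array. Of the 19 probes, 1 was called in Chek1_R, where 9.27% of all probes were called, and 0 were called in Bub1b_R (5.6% of all probes), Ppm1g_R (4.37%), Ppp2r1b_R (4.82%) and Control_R (1.1%). Without the fold limit 2, 4, 4, 1 and 1 member probes passed in Bub1b_R, Chek1_R, Ppm1g_R, Ppp2r1b_R and Control_R, against 24.4%, 30.9%, 23.4%, 25.3% and 7.55% of all probes. At an unadjusted p under 0.05 the counts were 2, 5, 5, 2 and 3, beside 34.7%, 39.1%, 33.9%, 36% and 21.7% of all probes, and by the methods' t-test 3, 5, 6, 1 and 1. The median member change was 0.03 in Bub1b_R, 0.00 in Chek1_R, 0.06 in Ppm1g_R, −0.01 in Ppp2r1b_R and 0.02 in Control_R, beside medians of all probes between −0.02 and 0.00. The plot of changes on Dox withdrawal sets the 19 probes side by side.

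**Figure D2:**
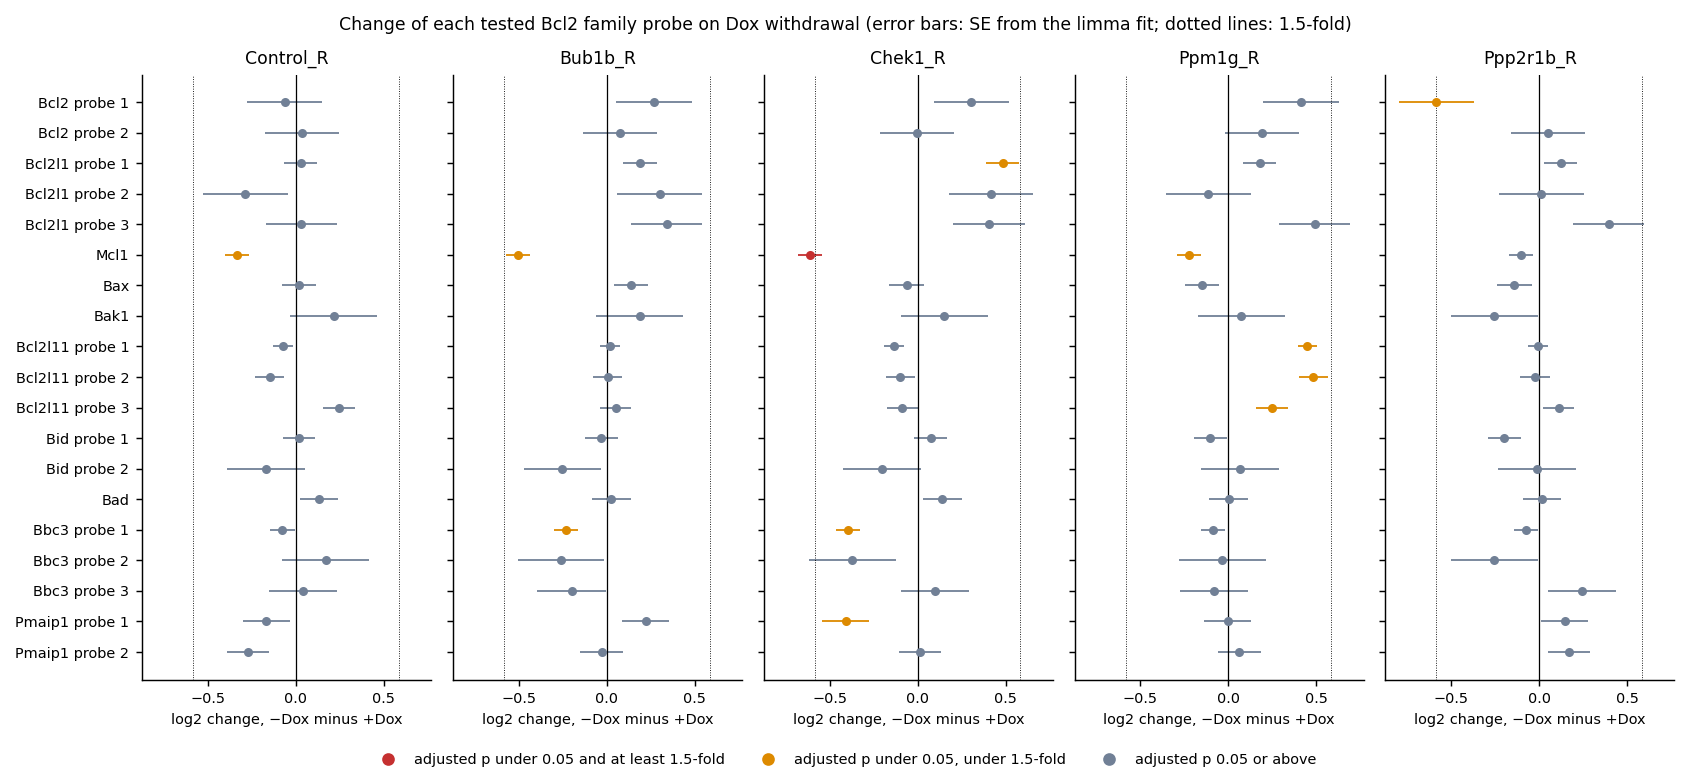
Log2 change without Dox minus with Dox of each tested member probe in the 5 clones, with the SE of the limma fit, red where called, orange where the adjusted p was under 0.05 with less than 1.5-fold, and dotted lines at 1.5-fold. Mcl1 in Chek1_R is the 1 called probe, and the 3 Bcl2l11 probes stand on the higher side in Ppm1g_R.

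Mcl1, a short-lived guardian without which early embryos do not develop, gave the clearest values. Its promoter is shown because Mcl1 is the 1 member called on Dox withdrawal. RefSeq (GRCm38.p6) places Mcl1 on chromosome 3, and the 250 bases before a start site of the gene lie at chr3:95658471-95658720 on the plus strand, with capitals marking the GC box (GGGCGG or, on the other strand, CCGCCC), the core of Sp1 family sites.
Mcl1: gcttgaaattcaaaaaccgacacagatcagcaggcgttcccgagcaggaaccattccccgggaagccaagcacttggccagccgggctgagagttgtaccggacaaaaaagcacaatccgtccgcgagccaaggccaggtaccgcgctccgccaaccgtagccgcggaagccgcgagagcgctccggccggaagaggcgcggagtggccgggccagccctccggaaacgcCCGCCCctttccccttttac
In Bub1b_R the Mcl1 level was 12.62, 12.59 and 12.60 with Dox and 12.11, 12.09 and 12.09 without Dox. On the arrays labelled Chek1_R it was 13.23, 13.11 and 13.19 with Dox and 12.38, 12.72 and 12.60 without Dox. In Ppm1g_R it was 12.80, 12.75 and 12.82 with Dox and 12.49, 12.64 and 12.57 without Dox. In these 3 clones each array without Dox was below each array with Dox. Ppp2r1b_R had 13.04, 13.07 and 13.12 with Dox and 13.06, 12.95 and 12.91 without Dox, and the conditions overlapped. Control_R had 13.27, 13.37 and 13.19 with Dox and 12.96, 12.95 and 12.93 without Dox, again with no overlap. Mcl1 thus fell by 0.50 in Bub1b_R (SE 0.07, limma adjusted p 4.9e-06), by 0.61 in Chek1_R (adjusted p 1.4e-07), by 0.22 in Ppm1g_R (adjusted p 0.0179) and by 0.33 in Control_R (adjusted p 0.00328), each in 9 of 9 array pairs (1 array from each condition). The value in Ppp2r1b_R was −0.10 (adjusted p 0.295). The call in Chek1_R was lost with arrays scaled to a common median (−0.56) and without Chek1_R −Dox replicate 1 (−0.52), both short of 1.5-fold. Mcl1 in Ppm1g_R and Control_R no longer passed when the fit held just that clone's arrays or by the methods' t-test, and in Ppm1g_R also not without 3 of its 6 arrays, one at a time. With median scaling the value was −0.37 in Ppm1g_R, and −0.29 and not past the test in Control_R.

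The 4 changes of Mcl1 differed among the regulator clones (limma F-test adjusted p 9.2e-04). On the arrays labelled Chek1_R the change differed from that in Control_R by −0.28 (adjusted p 0.0448), which passed under 4 of 8 other settings. Relative to Control_R it was −0.17 in Bub1b_R, 0.11 in Ppm1g_R and 0.23 in Ppp2r1b_R, none of which passed. In order of level, Control_R with Dox (13.28 ± 0.09, SD, n = 3) stood at the top and Bub1b_R without Dox (12.10 ± 0.01) at the bottom. The 5 highest conditions ran down to Control_R without Dox (12.95 ± 0.02) with each overlapping its neighbour. Bub1b_R without Dox did not overlap the next condition, Ppm1g_R without Dox (12.56 ± 0.07).

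Of the other guardians, Bcl2l1 rose on the arrays labelled Chek1_R. Bcl2l1, which is needed for survival of developing neurons and blood cells, had 7.31, 7.25 and 7.17 with Dox and 7.84, 7.68 and 7.66 without Dox there on its brightest probe. The conditions did not overlap. Bcl2l1 rose by 0.48 (SE 0.10, limma adjusted p 3.3e-04), and by 0.46 relative to the change in Control_R (adjusted p 0.0191). The brightest probe changed by 0.19 in Bub1b_R, 0.18 in Ppm1g_R, 0.12 in Ppp2r1b_R and 0.03 in Control_R, none past the test, and the F-test among the 4 clones did not pass (adjusted p 0.149). Its 2 dimmer probes gave 0.42 and 0.41 on the arrays labelled Chek1_R (adjusted p 0.212 and 0.141). The 2 probes of Bcl2, the founding guardian of the family, changed by 0.31 and −0.003 on the arrays labelled Chek1_R (adjusted p 0.318 and 0.994). Bcl2 in Ppp2r1b_R had 6.26, 6.05 and 5.64 with Dox on its brighter probe, detected on 2 of 3 arrays, and 5.40, 5.51 and 5.28 without Dox, detected on none. It was at least 1.29-fold lower without Dox (adjusted p 0.0486), while the other Bcl2 probe changed by 0.05 (adjusted p 0.893). This value passed under 1 of 9 other settings. The Bcl2 probes did not follow each other over the 30 arrays (Pearson r −0.11 of deviations from each clone's mean).

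Neither pore former passed the test on Dox withdrawal in any clone. Bax was 11.04, 10.94 and 10.99 with Dox and 11.15, 11.16 and 11.07 without Dox in Bub1b_R, a change of 0.14 (95% interval −0.06 to 0.34, adjusted p 0.347). The arrays of the conditions did not overlap, but the difference did not pass the test. Bax changed by −0.06 in Chek1_R, −0.15 in Ppm1g_R, −0.14 in Ppp2r1b_R and 0.02 in Control_R, and the lowest end of these intervals was −0.35, in Ppm1g_R. Bak1 ranged from 5.38 to 6.41 over the arrays, close to the limit of detection. Its changes lay between −0.26 in Ppp2r1b_R and 0.21 in Control_R, with 95% intervals that reached past 1.5-fold in 4 of 5 clones (−0.77 to 0.25 in Ppp2r1b_R), so a Bak1 change of that size was not resolved here.

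Among the BH3-only genes, Bcl2l11 stood apart in Ppm1g_R. Bim is a broad killer that binds every guardian, and its transcription is known to be driven by forkhead (FoxO) factors when growth factor signals fall. Its promoter is shown for that reason and because Bcl2l11 differed most clearly among the clones. RefSeq gives Bcl2l11 2 start sites, and the one shown is that with the forkhead core. The 250 bases before it lie at chr2:128125788-128126037 on the plus strand (GRCm38.p6), with capitals marking 3 GC boxes (GGGCGG) and 1 forkhead core (GTAAACA). The promoter of the other start site holds 2 GC boxes and 0 forkhead cores.
Bcl2l11: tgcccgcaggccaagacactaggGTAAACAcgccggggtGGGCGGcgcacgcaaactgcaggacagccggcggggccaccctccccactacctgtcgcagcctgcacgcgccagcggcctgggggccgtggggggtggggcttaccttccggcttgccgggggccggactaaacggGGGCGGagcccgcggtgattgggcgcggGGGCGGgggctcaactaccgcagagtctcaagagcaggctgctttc
On the brightest Bcl2l11 probe Ppm1g_R had 8.75, 8.84 and 8.67 with Dox and 9.20, 9.22 and 9.18 without Dox. The next brightest probe had 7.59, 7.58 and 7.70 with Dox and 8.08, 8.16 and 8.07 without Dox. On the dimmest of the 3 tested probes the values were 6.58, 6.53 and 6.47 with Dox and 6.78, 6.83 and 6.72 without Dox. All 3 probes were higher without Dox with no overlap. Bcl2l11 rose by 0.45 (SE 0.06, limma adjusted p 2.5e-06), by 0.48 (SE 0.08, adjusted p 1.4e-04) and by 0.25 (SE 0.09, adjusted p 0.0465) on these probes. The last of these no longer passed without any 1 of the 6 Ppm1g_R arrays.

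With Dox, Ppm1g_R was the lowest of the 10 conditions on the brightest probe at 8.75 ± 0.08 (SD, n = 3) and did not overlap any other condition. Without Dox, Ppm1g_R had a mean of 9.20, and its arrays overlapped those of Bub1b_R in both conditions (9.18 and 9.20) and of Chek1_R and Control_R with Dox (9.18 and 9.16). They lay above those of Chek1_R (9.04) and Control_R (9.09) without Dox with no overlap. Against Control_R, Bcl2l11 in Ppm1g_R differed with Dox by −0.41 on the brightest probe (limma adjusted p 1.1e-06) and −0.34 on the next (adjusted p 0.00120), and without Dox by 0.11 (adjusted p 0.0846) and 0.29 (adjusted p 0.00367), comparisons that cross the array sets. Ppp2r1b_R was the highest, with 9.60, 9.63 and 9.53 with Dox and 9.63, 9.59 and 9.52 without Dox, a pair of conditions that overlapped each other and no other clone. The changes on Dox withdrawal in the other clones were 0.02 in Bub1b_R, −0.14 in Chek1_R, −0.01 in Ppp2r1b_R and −0.07 in Control_R, none past the test. The plot of the Bcl2l11 probes shows that Ppm1g_R with Dox was lowest and Ppp2r1b_R highest on both brighter probes. On the next brightest probe, Ppm1g_R without Dox (8.07 to 8.16) lay above Chek1_R with Dox (7.96 to 8.01) and Control_R with Dox (7.84 to 8.06), which overlapped with it on the brightest. On the dimmest tested probe the Chek1_R means were the lowest (6.43 without Dox and 6.51 with Dox), both conditions overlapping Ppm1g_R with Dox. The correlation of array deviations from the clone means was 0.77 between the 2 brighter probes, and 0.41 and 0.31 between each of them and the dimmest (30 arrays, which share clones and normalization).

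**Figure D3:**
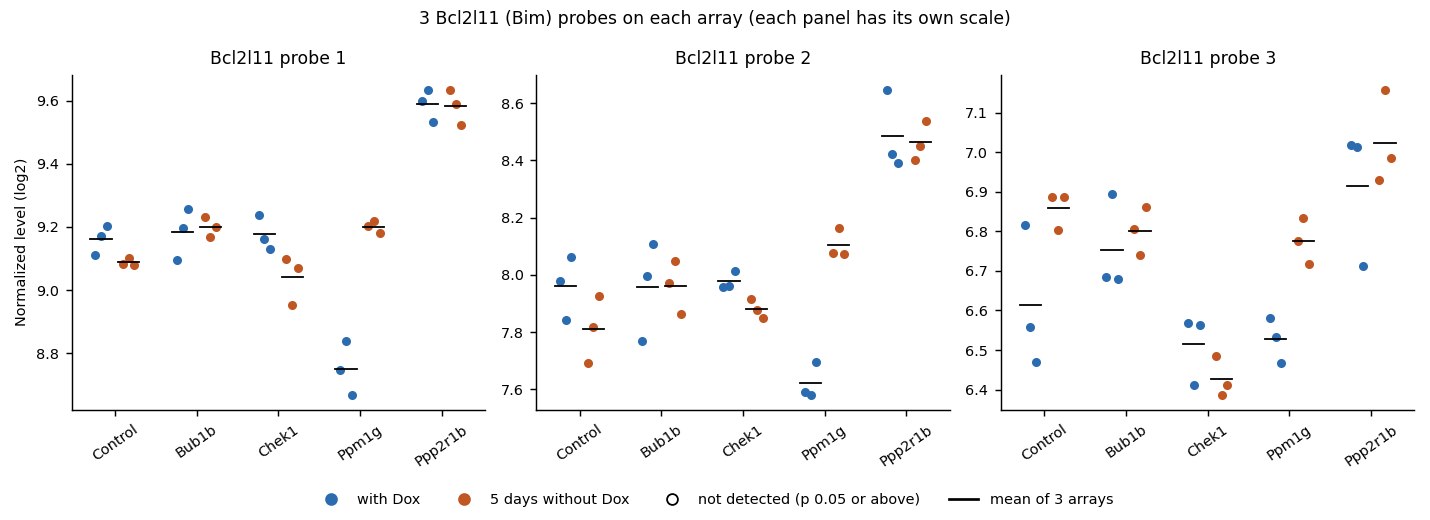
Log2 normalized level of the 3 tested Bcl2l11 (Bim) probes on every array by clone, with Dox in blue and without Dox in orange, lines marking means of 3 arrays. Ppm1g_R with Dox is lowest on the 2 brighter probes (means 8.75 and 7.62) and Ppp2r1b_R is highest on all 3.

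Relative to the change in Control_R, Bcl2l11 rose by 0.52 in Ppm1g_R on the brightest probe (limma adjusted p 9.7e-05) and by 0.63 on the next (adjusted p 8.1e-04). On the dimmest tested probe the value was 0.004 (95% interval −0.26 to 0.27, adjusted p 0.989), where Control_R itself had changed by 0.24 (adjusted p 0.101). The next brightest probe was the 1 member probe called in that comparison, in which 5.27% of all probes were called, and it fell short of 1.5-fold with arrays scaled to a common median (0.56), at an offset of 50 (0.55), and without 2 of the 12 arrays, one at a time. No member probe was called relative to Control_R in Bub1b_R (5.15% of all probes), Chek1_R (8.99%) or Ppp2r1b_R (3.28%). There, 0, 3 and 0 member probes passed without the fold limit, beside 12.2%, 18.3% and 8.28% of all probes (2 in Ppm1g_R, beside 12%). At an unadjusted p under 0.05 the counts were 0, 4 and 2, beside 25.5%, 29.4% and 22.8% of all probes (2 in Ppm1g_R, beside 25.4%). The F-test among the 4 clones passed for 5 of the 19 member probes, beside 24% of all probes. These were the 2 brighter Bcl2l11 probes (adjusted p 4.3e-05 and 0.00255), Mcl1, the brightest Bbc3 probe (adjusted p 0.0423) and the brighter Bcl2 probe (adjusted p 0.0481).

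Bbc3, the p53 target whose product Puma kills by binding all guardians, fell where Mcl1 fell most. On its brightest probe Bub1b_R had 11.09, 11.06 and 11.13 with Dox and 10.87, 10.88 and 10.84 without Dox. The arrays labelled Chek1_R had 11.97, 11.95 and 11.85 with Dox and 11.67, 11.46 and 11.45 without Dox. In both clones the conditions did not overlap. Bbc3 fell by 0.23 in Bub1b_R (SE 0.07, limma adjusted p 0.0136) and by 0.40 in Chek1_R (adjusted p 6.9e-05), and by 0.32 in Chek1_R relative to the change in Control_R (adjusted p 0.0219), the last with arrays scaled to a common median at −0.20 and not past the test. The values were −0.09 in Ppm1g_R, −0.07 in Ppp2r1b_R and −0.08 in Control_R, none past the test. The fall in Bub1b_R was −0.15 and did not pass with arrays scaled to a common median, nor did it pass without Bub1b_R +Dox replicate 3. Neither of the 2 dimmer Bbc3 probes passed in any clone, and their deviations followed the brightest probe with r = 0.41 and −0.14. Over the 30 arrays, as deviations from the clone means, Bbc3 followed Mcl1 with r = 0.72, and Bcl2l1 ran against Mcl1 with r = −0.76.

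Pmaip1, whose product Noxa mainly neutralizes Mcl1, had 7.19, 7.37 and 7.47 with Dox and 6.89, 7.05 and 6.86 without Dox on the arrays labelled Chek1_R. It fell by 0.41 there with no overlap (SE 0.13, limma adjusted p 0.0214), a result that did not pass without 4 of the 6 Chek1_R arrays, one at a time, or with arrays scaled to a common median (−0.33). The changes in the other clones were 0.22 in Bub1b_R, 0.00 in Ppm1g_R, 0.15 in Ppp2r1b_R and −0.17 in Control_R, with adjusted p of 0.259 or higher. Bid, which is cut by caspase-8 and links death receptors to mitochondria, changed by −0.20 in Ppp2r1b_R (95% interval −0.39 to −0.01, adjusted p 0.123) and by −0.10 to 0.07 in the other clones on its brighter probe. Bad, which is held inactive by growth factor kinases, changed by 0.00 to 0.14. Neither gene passed in any clone.

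The second question was how the clones differ from Control_R within a condition. Here Pmaip1 was the member that separated them. Control_R had 8.21, 8.05 and 8.06 with Dox and 8.10, 7.78 and 7.93 without Dox. With Dox the highest array of any other clone was at 7.47, and without Dox at 7.31, so that Control_R overlapped no other clone. Without Dox, Pmaip1 was lower than in Control_R by −1.15 in Bub1b_R (limma adjusted p 9.6e-08), −0.999 in Chek1_R (7.5e-07), −0.89 in Ppm1g_R (3.0e-06) and −1.01 in Ppp2r1b_R (5.0e-07). With Dox the differences were −1.54 in Bub1b_R (adjusted p 1.8e-09), −0.76 in Chek1_R (5.5e-05), −1.06 in Ppm1g_R (3.1e-07) and −1.33 in Ppp2r1b_R (1.1e-08). Every one of these differences was called and held in 9 of 9 array pairs. The difference in Bub1b_R lies within 1 array set by lowest detected signal, which need not be 1 batch. The other Pmaip1 probe was detected on 4 arrays and was not read further, though it stays in the counts of member probes. The comparisons of a condition share its 3 Control_R arrays.

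Mcl1 was lower than in Control_R in Bub1b_R, by −0.85 without Dox (adjusted p 1.8e-10) and −0.68 with Dox (adjusted p 2.0e-08), both called. Both lie within 1 array set by lowest detected signal, which need not be 1 batch. The Mcl1 differences without Dox were −0.38 in Chek1_R and −0.38 in Ppm1g_R, both past the test and under 1.5-fold, and 0.03 in Ppp2r1b_R. With Dox they were −0.49 in Ppm1g_R (limma adjusted p 1.3e-06) and −0.20 in Ppp2r1b_R (adjusted p 0.0121), both under 1.5-fold. In Chek1_R with Dox the value was −0.10 and did not pass (adjusted p 0.227). Bbc3 was lower in Ppm1g_R, by −0.64 without Dox (adjusted p 1.8e-08) and −0.63 with Dox (adjusted p 3.2e-08). Bbc3 in Bub1b_R differed by −0.66 without Dox (adjusted p 1.7e-08), called, and by −0.50 with Dox. On the arrays labelled Chek1_R with Dox, the brightest Bbc3 probe instead lay above Control_R without overlap (means 11.92 and 11.59), across array sets. The middle Bbc3 probe was called higher there (means 6.78 and 6.09), and the dimmest had means of 6.22 and 6.38. Without Dox the brightest probe had means of 11.53 in Chek1_R and 11.52 in Control_R. Bcl2l1 lay on the higher side. Its brightest probe was higher without Dox by 0.43 in Bub1b_R, 0.52 in Chek1_R, 0.43 in Ppm1g_R and 0.59 in Ppp2r1b_R, all past the test, and the last was called (adjusted p 9.3e-06). With Dox that probe was higher by 0.26 in Bub1b_R, 0.28 in Ppm1g_R and 0.49 in Ppp2r1b_R, which passed the test, and by 0.07 in Chek1_R, which did not. The middle Bcl2l1 probe was called without Dox in the 4 clones (0.73, 1.04, 0.63 and 0.84). With Dox its values were 0.15, 0.34, 0.46 and 0.54, none past the test, and the difference between the conditions did not pass in any clone (adjusted p 0.171 to 0.805). The dimmer Bcl2 probe was detected on 1 of 3 Control_R arrays without Dox and on none with Dox. It was called higher than in Control_R without Dox in Chek1_R (0.66, detected on 3 of 3 arrays), Ppm1g_R (0.69, on 2) and Ppp2r1b_R (0.75, on 2), and with Dox in Chek1_R (at least 1.19-fold) and Ppp2r1b_R (at least 1.22-fold). These comparisons set a probe near background across array sets that differ in their lowest detected signal. The brighter Bcl2 probe gave 0.38, 0.52 and 0.06 in Chek1_R, Ppm1g_R and Ppp2r1b_R without Dox, none called. In Ppp2r1b_R without Dox the next brightest Bcl2l11 probe was called higher than in Control_R (means 8.46 and 7.81), across array sets. The brightest Bcl2l11 probe (means 9.58 and 9.09) was not called, and no Bcl2l11 probe was called there with Dox.

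**Figure D4:**
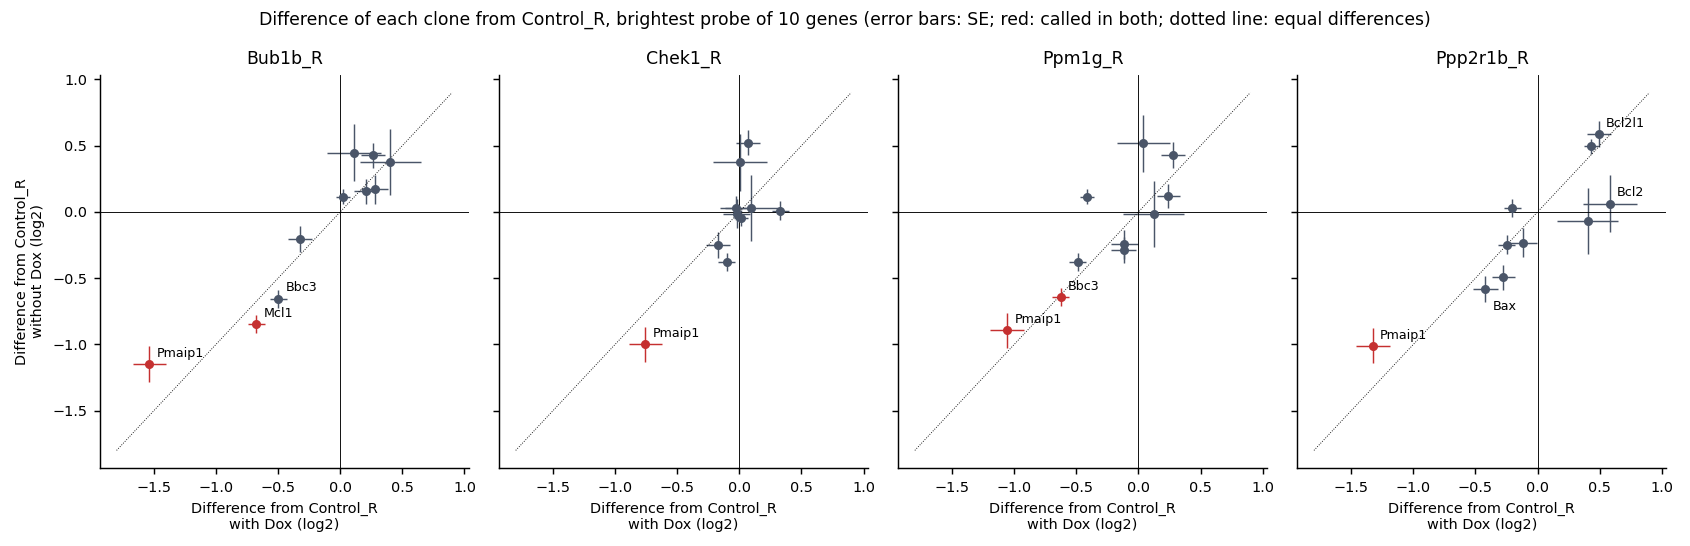
Log2 difference of each clone from Control_R with Dox (horizontal axis) and without Dox (vertical axis), for the brightest probe of each of the 10 members, with SE bars, red where called in both conditions and a dotted line where the differences are equal; both axes share the Control_R arrays of their condition. Pmaip1 is red and lies between −0.76 and −1.54 in every panel, and Mcl1 in Bub1b_R and Bbc3 in Ppm1g_R are the other red points.

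Without Dox 4, 3, 4 and 5 of the 19 member probes were called in Bub1b_R, Chek1_R, Ppm1g_R and Ppp2r1b_R, beside 22.6%, 28.8%, 33.5% and 33.7% of all probes. With Dox 3, 3, 2 and 2 were called, beside 12.7%, 17.6%, 29.1% and 28.3%. The share of members was near or below that of all probes, and 3 of 19 in Bub1b_R with Dox was the 1 share above it. Those 3 were Mcl1 and both Pmaip1 probes. With Dox, the dimmer Pmaip1 probe was detected on 0 of 3 Bub1b_R arrays and 1 of 3 Control_R arrays. Without that probe this share would also lie below that of all probes. The median member difference lay between 0.03 and 0.11 without Dox and between −0.11 and 0.13 with Dox, and that of all probes between −0.04 and −0.01 without Dox and between −0.04 and 0.00 with Dox. Bax was not called in any clone. Bax in Ppp2r1b_R was lower than in Control_R by −0.58 without Dox (adjusted p 1.5e-05) and −0.42 with Dox (adjusted p 7.1e-04).

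The genes around the family were counted in lists of known function, each gene read by its brightest probe. Over all probes, Dox withdrawal was called higher for 2.94% in Bub1b_R, 4.49% in Chek1_R, 2.3% in Ppm1g_R, 2.77% in Ppp2r1b_R and 0.706% in Control_R, and lower for 2.67%, 4.77%, 2.07%, 2.05% and 0.396%. Of 12 tested further Bcl2 family genes none was called on Dox withdrawal in any clone (limma), and 4, 3, 2, 3 and 2 passed without the fold limit in Bub1b_R, Chek1_R, Ppm1g_R, Ppp2r1b_R and Control_R (6, 6, 7, 5 and 3 at an unadjusted p under 0.05). Of 14 tested genes of the apoptosome and the caspases 1, 2, 1, 1 and 0 were called higher, and 1, 1, 0, 0 and 0 lower. Casp8, the initiator caspase of death receptors, rose in all 4 regulator clones, by 0.77 in Bub1b_R (adjusted p 4.6e-05), 1.13 in Chek1_R (1.1e-07), 0.69 in Ppm1g_R (2.0e-04) and 0.63 in Ppp2r1b_R (5.2e-04). In Control_R Casp8 changed by 0.21 (adjusted p 0.323), and relative to this the changes passed in Bub1b_R (0.55, adjusted p 0.0380) and Chek1_R (0.91, adjusted p 5.1e-04) and not in the other two. Aifm2, an oxidoreductase related to apoptosis-inducing factor, fell by 1.00 in Bub1b_R (adjusted p 1.8e-09) and by 0.74 in Chek1_R (adjusted p 8.8e-08), with −0.03 in Control_R, and differed from Control_R in both (adjusted p 3.3e-06 and 6.2e-05). It also fell, under 1.5-fold, by 0.275 in Ppm1g_R (adjusted p 0.0142) and by 0.38 in Ppp2r1b_R (adjusted p 9.9e-04). Relative to Control_R neither of these passed (adjusted p 0.174 and 0.0532). The caspase inhibitors and their antagonists had 0 of 5 called in each clone (0, 1, 2, 2 and 0 at an unadjusted p under 0.05).

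Of 10 tested death receptor genes 1 was called higher in Bub1b_R, and 2 were called lower in Chek1_R and 1 in Ppm1g_R. Tnfrsf10b, the mouse receptor for TRAIL, fell by 0.90 in Chek1_R (limma adjusted p 0.00225) and by 0.68 in Ppm1g_R (adjusted p 0.0226), beside −0.02 in Control_R. Relative to Control_R the change passed in Chek1_R (−0.87, adjusted p 0.0484) and not in Ppm1g_R (−0.66, adjusted p 0.173). Of 16 tested genes of p53 and its apoptosis targets none was called higher in any clone, and 0, 2, 1, 1 and 0 were called lower in the order above. The median change of that list was −0.10 in Bub1b_R, −0.15 in Chek1_R, 0.05 in Ppm1g_R, −0.003 in Ppp2r1b_R and 0.00 in Control_R. Among 31 tested regulators of the family, 2 were called higher in Bub1b_R, and 2, 1, 1 and 2 were called lower in Chek1_R, Ppm1g_R, Ppp2r1b_R and Control_R. Ddit3 (Chop), the stress factor that can induce Bim, fell by 1.19 in Chek1_R (adjusted p 1.1e-07) and by 0.67 in Ppm1g_R (adjusted p 5.1e-04), and differed from Control_R in both (adjusted p 5.2e-05 and 0.0199). In Bub1b_R it fell by 0.38 (adjusted p 0.0355), under 1.5-fold, and the change relative to Control_R did not pass (adjusted p 0.219). Whether Ddit3 has a part in the Bcl2l11 values was not tested. Trib3, a target of Chop, fell by 1.04 in Chek1_R (adjusted p 4.5e-10), by 0.94 in Ppp2r1b_R (adjusted p 1.3e-08) and by 0.69 in Control_R (adjusted p 9.2e-06). In Bub1b_R it fell by 0.40 (adjusted p 7.3e-04), under 1.5-fold, and in Ppm1g_R the value was −0.11 (adjusted p 0.372). Relative to Control_R the change of Trib3 passed in Chek1_R (−0.35, adjusted p 0.0387) and, in the other direction, in Ppm1g_R (0.58, adjusted p 0.00157). It did not pass in Bub1b_R (0.29, adjusted p 0.110) or Ppp2r1b_R (−0.25, adjusted p 0.190).

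The genes most like Mcl1 over the 30 arrays, as deviations from the clone means, were Camk2n1 (r = 0.93), Svop (0.92) and 1300013J15Rik (0.91). In the RefSeq promoter table (GRCm38.p6, 250 bases before to 50 after each start) only the 250 bases before each start were searched, for members and all promoters alike. The search held 9 members, with 15 start sites. Pmaip1, on chromosome 18, was left out of this search, so the member counts below do not cover it. The GC box (GGGCGG, either strand) occurs in 10 of these 15, in Bcl2, Bcl2l11, Mcl1, Bid, Bbc3, Bax and Bad, and in 32.7% of all 32851 promoters of the table. The forkhead core (GTAAACA, either strand) occurs in 2, of Bcl2l11 and Bbc3, and in 3.17% of all promoters. The E-box (CACGTG) occurs in 2, of Bbc3 and Bax, and in 6.02% of all. The TATA box (TATAAA, either strand) occurs in none of the 15 and in 12.4% of all, and the p53 half-site in 1, of Bax, and in 7.13% of all. A match only says that these letters are present. The printed promoters had 64.4% (Mcl1) and 72% (Bcl2l11) of G and C, beside a median of 52.4% over all promoters.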

How the data were processed

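Per the labels and the study's methods, total RNA was read on 30 Illumina mouse WG-8 arrays. The deposited table gives each of 25697 probes an intensity before normalization, and a p-value of detection, on every array. The submitters' processing notes name lumi. Normalization and threshold are not given in the sources used here. In 2 arrays some detection cells held dates (Ppm1g_R −Dox replicate 2 with 46, Bub1b_R −Dox replicate 2 with 14), none for a member probe. They were turned back into fractions where possible (28 and 6) or replaced by that of the probe nearest in signal.

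The limma package (3.58.1, with statmod 1.5.0, R 4.3.3) normalized the intensities by neqc (offset 16, quantiles, log2). The 15151 probes (11177 genes) with detection p under 0.05 on at least 3 arrays entered 1 limma fit of 10 condition means (20 residual degrees of freedom). There were 17 contrasts and an F-test of the change on Dox withdrawal among the 4 regulator clones. Benjamini-Hochberg adjustment ran over all tested probes of a contrast. Calls needed an adjusted p under 0.05 and 1.5-fold. A bound ("at least") sets the mean of the condition with detection against, on each array of the other, the higher of the lowest detected level and the probe's own. Intervals are 95%.

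The members, the wider lists and the markers were chosen with earlier results of these data known. Every member probe is accounted for, and the brightest stands for a gene in the plots. From a wider list those genes are named that were called on Dox withdrawal in at least 2 of the 4 regulator clones. For a member called on Dox withdrawal, the 3 probes most correlated with it are named. The fit was tested on simulated data with 200 of 15151 probes changed. It recovered 97.5% with 6 false calls for Dox withdrawal in Chek1_R, 89% with 8 for Ppm1g_R relative to Control_R, and 97.5% with 4 for Bub1b_R without Dox against Control_R. The planted changes were larger than every member change on Dox withdrawal or relative to Control_R. Recovery of changes as small as those was not tested.

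Alternatives were no background correction, median scaling, each clone normalized on its own, no fold limit, an offset of 50, all probes kept, only those with detection p under 0.01 on each of the 3 arrays of some condition (12372), a fit of only the arrays compared, the replicate number as a block, the methods' t-test, and leaving out each array. A fit that leaves out the 6 arrays labelled Chek1_R was chosen after seeing the data.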

Additional observations from a re-analysis of the deposited data

Results flagged for a closer look

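The changes below differed between clones by a test of the difference itself. Relative to the change in Control_R, on the arrays labelled Chek1_R, Mcl1 changed by −0.28 (limma adjusted p 0.0448) and the brightest Bbc3 probe by −0.32 (adjusted p 0.0219), while the brightest Bcl2l1 probe changed by 0.46 (adjusted p 0.0191). In Ppm1g_R the 2 brighter Bcl2l11 probes changed by 0.52 (adjusted p 9.7e-05) and 0.63 (adjusted p 8.1e-04) relative to Control_R, and the dimmest tested probe by 0.004 (adjusted p 0.989). Among the 4 regulator clones, the F-test of the change on Dox withdrawal gave an adjusted p of 4.3e-05 and 0.00255 for these Bcl2l11 probes, 9.2e-04 for Mcl1, 0.0423 for the brightest Bbc3 probe and 0.0481 for the brighter Bcl2 probe.

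Over the alternatives other than leaving out arrays, the values of the 2 brighter Bcl2l11 probes in Ppm1g_R relative to Control_R ran from 0.42 to 0.54 and from 0.55 to 0.68, and passed in 9 of 9. The Mcl1 value in Chek1_R ran from −0.31 to −0.27 and passed in 4 of 8, the Bbc3 value from −0.32 to −0.20 and passed in 6 of 8, and the Bcl2l1 value from 0.38 to 0.51 and passed in 8 of 8. With single arrays left out, these 3 passed in 3, 7 and 10 of 12 fits.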

How the results depend on the processing

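Counts are of the 19 member probes called. On Dox withdrawal, the count in Chek1_R was 1 and became 0 with median scaling. Without a fold limit the counts were 2 in Bub1b_R, 4 in Chek1_R, 4 in Ppm1g_R, 1 in Ppp2r1b_R and 1 in Control_R. Relative to Control_R, Chek1_R had 1 with no detection filter and 3 without a fold limit, and Ppm1g_R had 0 with median scaling, 0 at an offset of 50, 2 with no detection filter and 2 without a fold limit. Against Control_R without Dox, there were 7 in Chek1_R, 10 in Ppm1g_R and 9 in Ppp2r1b_R without a fold limit, beside 60.6%, 64.8% and 65.4% of all probes. There were 2 in Ppm1g_R and 1 in Ppp2r1b_R at an offset of 50, and 2 in Ppm1g_R by the methods' t-test. With Dox, there were 7 in Bub1b_R, 5 in Chek1_R, 9 in Ppm1g_R and 13 in Ppp2r1b_R without a fold limit, beside 39.9%, 49.6%, 61.7% and 61.3% of all probes. Median scaling gave 1 in Bub1b_R, 1 in Ppm1g_R and 5 in Ppp2r1b_R, an offset of 50 gave 1 in Chek1_R and 1 in Ppp2r1b_R, no background correction 1 in Chek1_R, and the strict detection filter 1 in Ppp2r1b_R. The F-test count of 5 was 3 with median scaling, 3 with no detection filter and 3 with the replicate block. The cause was not tested. Median scaling moved the median of all probes to 0.10 in Bub1b_R and −0.18 in Ppp2r1b_R without Dox and to −0.18 in Ppp2r1b_R with Dox.

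With 1 array left out, the count ranged from 0 to 1 on Dox withdrawal in Chek1_R and in Ppp2r1b_R, from 0 to 1 relative to Control_R in Chek1_R and in Ppm1g_R, from 3 to 5 in Bub1b_R, 2 to 3 in Chek1_R, 3 to 5 in Ppm1g_R and 4 to 5 in Ppp2r1b_R against Control_R without Dox, from 2 to 3 in Bub1b_R, 2 to 3 in Chek1_R, 2 to 3 in Ppm1g_R and 2 to 5 in Ppp2r1b_R with Dox, and from 3 to 5 for the F-test. The other counts stayed at 0.

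The replicate numbers did not pair the arrays. Arrays of the same number and clone had correlations of −0.08 to 0.13 in their deviations, 1 of 15 over 0.1, and 6 of 15 arrays correlated best with their own number, and the replicate block moved the F-test count and no other count by over 1.5 times. Without the arrays labelled Chek1_R no count of the other clones moved by over 1.5 times. No value changed sign while called. Of the single-probe outcomes under settings other than left-out arrays, 391 stayed on their side of the threshold, 12 came to pass and 29 no longer passed. Of the tested probes, those of Bcl2 (14 and 16 arrays), Bak1 (23), and the dimmest of Bcl2l1 (23), Bid (9) and Pmaip1 (4) were detected on fewer than 28 of the 30 arrays, and the signal over background limits what they resolve.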
